A study of Mus musculus with 21 samples.

Results

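Repeated T cell receptor stimulation was applied to mouse CD8+ T cells by the same plate-bound anti-CD3 protocol in 2 experiments of this study, and the quantity described here is how far their responses differed gene by gene. For each gene the polyclonal chronic effect (chronic minus acute) was subtracted from the vehicle chronic effect on the log2(RPKM + 1) scale, where RPKM is a read count normalised for the length of the gene and the depth of the library. The members are the 12 libraries of 4 groups, with 3 libraries per group, out of 21 libraries in the series. Of 13202 genes in the table, 11513 had an RPKM of 1 or more in at least 3 of these 12 libraries and were tested. Effects and differences below are on this log2 scale, and where a pair of effects is given the polyclonal one comes first. A positive difference means that repeated stimulation raised the gene further, or lowered it less, in the vehicle experiment than in the polyclonal experiment. The scale understates changes of genes with low values.

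All 4 groups were CD8+ T cells of C57BL/6 mice, purified from the spleen and the inguinal nodes by magnetic depletion of other cells, activated for 48 h on plate-bound anti-CD3 and anti-CD28 with IL-2, and harvested for poly-A+ RNA sequencing 8 days after first stimulation. The acute groups were then kept in IL-2 without further anti-CD3, and the chronic groups were moved onto fresh plate-bound anti-CD3 every 48 h. The vehicle groups were the vehicle controls of an N-acetylcysteine arm and the polyclonal groups carried no such label, so that vehicle and experiment cannot be told apart. The labels do not say what the vehicle was, whether mice were pooled, or whether libraries of a group came from separate cultures or animals, and p-values therefore measure only the spread between these libraries, which may be technical.

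CD8+ T cells recognise peptide on MHC class I and kill their targets by releasing perforin and granzymes, and by secreting cytokines such as interferon-gamma. Engagement of the T cell receptor (TCR) switches on calcium, MAP kinase and NF-kappaB signalling and, through these, early transcription factors of the NR4A and EGR families. When the signal persists, CD8+ T cells are known to carry inhibitory receptors such as PD-1 (Pdcd1), LAG-3 and TIM-3 (Havcr2) and to lose the memory factor TCF-1 (Tcf7), a state called exhaustion. Helper T cells, the CD4+ lineage, are the usual source of IL-4, IL-5, IL-13 and IL-21.

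Library contents were read against the CD8+ label first. The 12 libraries held between 5347355 and 17539278 reads in genes, as recovered from the RPKM steps, and 5 of the 6 polyclonal libraries were shallower than all 6 vehicle libraries. The CD8 alpha chain gene Cd8a was at 101, 101 and 102 RPKM in the polyclonal acute libraries, 8.301, 8.51 and 8.63 in the polyclonal chronic, 87.3, 88.7 and 85.2 in the vehicle acute and 144, 146 and 145 in the vehicle chronic libraries. Cd8b1, the beta chain, was at 274, 259 and 267 RPKM in the polyclonal acute libraries, 24.05, 21.3 and 23.8 in the polyclonal chronic, 179, 179 and 177 in the vehicle acute and 88.6, 88.8 and 89.1 in the vehicle chronic libraries. Both chains were therefore far lower in the 3 polyclonal chronic libraries than in the other 9, and the polyclonal groups did not overlap for either chain.

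The CD4 co-receptor gene went the other way in the polyclonal cells. Cd4 was at 68.8, 64.1 and 69.7 RPKM in the polyclonal acute libraries, 317, 303 and 317 in the polyclonal chronic, 12.98, 14.1 and 14.7 in the vehicle acute and 2.39, 2.16 and 2.63 in the vehicle chronic libraries. All 6 polyclonal libraries were above all 6 vehicle libraries, and the polyclonal chronic libraries were the highest. Of the CD3 complex genes, Cd3d was at 273, 254 and 293 RPKM in the polyclonal chronic and 437, 435 and 419.95 RPKM in the vehicle chronic libraries. Cd3e fell from 367, 275 and 286 to 137, 136 and 144 RPKM in the polyclonal experiment. It was at 227, 227 and 229 RPKM in the vehicle chronic libraries. Both chronic groups therefore held T cell RNA. Of 11 T cell markers, 5 fell and 3 rose in the polyclonal experiment, against 37.5% and 30.6% of all tested genes. In bulk RNA, fewer cells of a type and less RNA per cell cannot be told apart.

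Genes of B cells were present in the polyclonal chronic libraries. Cd79b, a signalling chain of the B cell receptor, was at 2.54, 5.47 and 2.56 RPKM in the polyclonal acute libraries, 117, 102 and 124 in the polyclonal chronic, 4.49, 5.804 and 4.58 in the vehicle acute and 3.46, 2.501 and 2.22 in the vehicle chronic libraries. Summed over the B cell marker list, the level was 20.6 to 38.8 RPKM in polyclonal acute, 250.3 to 272 in polyclonal chronic, 11.1 to 12.7 in vehicle acute and 9.03 to 12.1 in vehicle chronic libraries. The sum over 5 CD4 T cell markers was 130.2 to 136, 543 to 561, 109.9 to 122 and 60.8 to 63.9 RPKM in the same order. Most of it in the polyclonal chronic libraries was Cd4 and Tnfsf8. Tnfsf8 was at 19.4, 18.6 and 20.3 RPKM in the polyclonal acute and 51.0, 50.4 and 57.2 RPKM in the vehicle acute libraries. Trat1, another of the 5, fell in both experiments, from 8.67, 12.6 and 10.6 to 4.07, 5.1 and 4.44 RPKM in the polyclonal one. Of the 12 B cell markers summed, 9 passed the filter only through the polyclonal chronic libraries. That the B cell sum was highest there was in part fixed by the filter. The regulatory T cell factor gene Foxp3 and the natural killer (NK) cell receptor gene Ncr1 were in the table but under the filter on low values. The sum over dendritic cell markers was 25.6 to 35.3, 989 to 1086, 74.1 to 78.8 and 55.3 to 56.1 RPKM in that order, most of it from Ccl22 in the polyclonal chronic libraries. Fscn1, the fascin gene of mature dendritic cells, was at 20.2, 17.1 and 20.1 RPKM there and at 1.12 RPKM or less in the other 9. Ccl22 and Fscn1 passed the filter only through the polyclonal chronic libraries. Other markers of this list were mixed in the polyclonal experiment: Itgax and Xcr1 fell, while Zbtb46, Batf3 and Ccr7 rose. Itgax went from 13.98, 15.8 and 15.2 RPKM in the acute to 2.26, 3.82 and 2.56 RPKM in the chronic libraries. Ly6g, the neutrophil marker and the 1 gene of its list that was tested, was at 3.39, 3.85 and 3.92 RPKM in the polyclonal acute libraries, 64.9, 63.2 and 70.6 in the polyclonal chronic, 4.703, 3.99 and 4.599 in the vehicle acute and 4.01, 4.08 and 4.57 in the vehicle chronic libraries. Many markers of macrophages, neutrophils, mast cells and erythroid cells were absent from the table, which held 5 of 13, 1 of 10, 6 of 11 and 1 of 9 listed. These cell types were therefore only partly checked. Among the macrophage markers, Mpeg1 rose and Itgam and Cd68 fell in the polyclonal experiment, while Cd14 and Adgre1 were not called there.

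The polyclonal libraries also held melanocyte pigment RNA, which none of the labels of these 4 groups accounts for. Tyrp1, a melanosome enzyme, was at 5.21, 15.3 and 8.47 RPKM in the polyclonal acute and 5.73, 10.1 and 5.63 RPKM in the polyclonal chronic libraries and was listed at 0 in all 6 vehicle libraries. In both polyclonal groups the library numbered 2 was the highest and also had the fewest reads. OT-I cells co-cultured with B16-F10 melanoma cells in the same study had Tyrp1 between 1237 and 2382 RPKM. Of 40 tested genes that were at least 20-fold higher in an OT-I group than in any of the 4 groups, 11 were called in the difference, against 55.2% of all tested genes. The choice favours genes that are low in the 4 groups, where calls are fewer on this scale. The count therefore does not show how much such RNA matters. Results that depend on the libraries numbered 2 are given with and without them. The part of pigment RNA and of other cells in the differences described here was not tested.

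**Figure D1:**
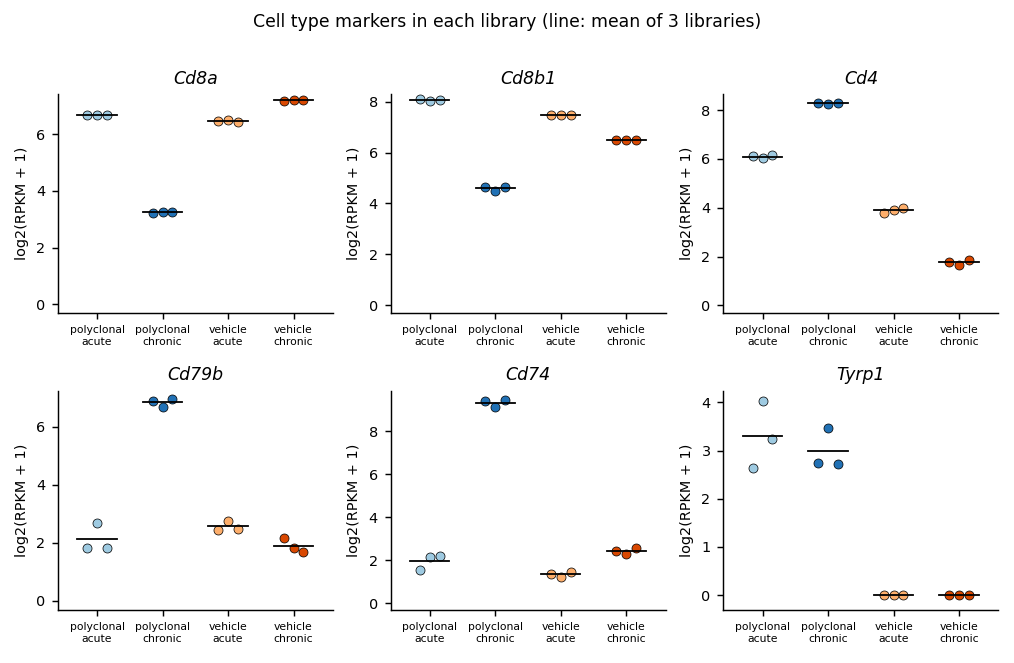
Lineage markers in each of the 12 libraries, on the log2(RPKM + 1) scale, with 1 point per library and a line at the mean of 3 libraries. Cd8a and Cd8b1 are lowest and Cd4, Cd79b and Cd74 highest in the polyclonal chronic libraries, and Tyrp1 is at 0 in all 6 vehicle libraries.

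The question asked of the 4 groups was whether the response to repeated anti-CD3 was of the same size in both experiments. It was not for much of the transcriptome: by limma with Benjamini-Hochberg adjustment over all 11513 genes, 6355 genes had a difference with adjusted p under 0.05, or 55.2% of those tested. The difference was positive for 2990 genes (26.0%) and negative for 3365 (29.2%). Counts of called members of the gene lists below are to be read beside these shares. With a difference of at least 2-fold as well, 718 genes (6.24%) were higher and 827 (7.18%) lower. The median difference over all tested genes was -0.0063, so that the bulk of genes was centred near 0.

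Both effects were broad. The polyclonal effect was called for 7843 genes (68.1%), 3524 upward (30.6%) and 4319 downward (37.5%). The vehicle effect was called for 7183 genes (62.4%), 2947 upward (25.6%) and 4236 downward (36.8%). With a change of at least 2-fold as well, 928 genes rose (8.06%) and 724 fell (6.29%) in the polyclonal experiment, and 744 rose (6.46%) and 594 fell (5.16%) in the vehicle experiment. Across the 11513 genes the effects had a Pearson r of 0.485 and a Spearman rho of 0.431, given as a description, since genes are not independent replicates and every gene was measured in the same 12 libraries. The SD of the effect across genes was 0.882 in the polyclonal and 0.792 in the vehicle experiment. A total of 1629 genes rose in both experiments and 2426 fell in both, 781 rose in the polyclonal and fell in the vehicle experiment, and 537 did the reverse.

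**Figure D2:**
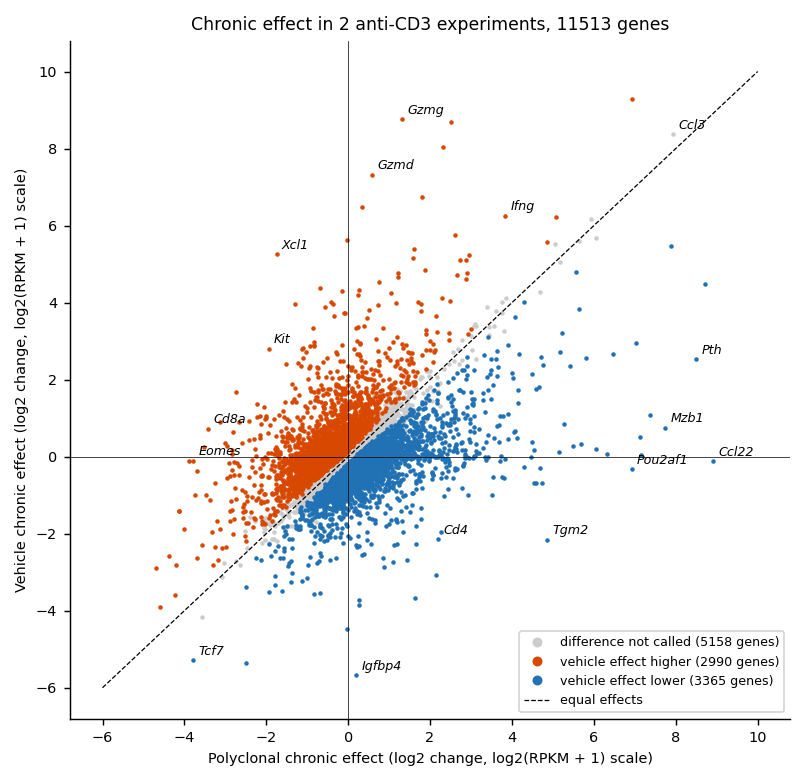
Chronic effect of each of 11513 genes in the polyclonal (x axis) and vehicle experiment (y axis), as log2 change on the log2(RPKM + 1) scale, with genes called higher (2990) or lower (3365) in the difference coloured and the dashed line marking equal effects. Gzmg and Gzmd lie high above the line, Ccl22, Pth and Mzb1 far to the right below it, and Ccl3 close to it.

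Cytotoxic granule genes held 6 of the 10 highest differences. Gzmg, a granzyme of the cluster that activated killer cells express, was at 49.1, 57.95 and 46.1 RPKM in the polyclonal acute libraries, 137, 107 and 146 in the polyclonal chronic, 3.79, 2.92 and 1.79 in the vehicle acute and 1641, 1643 and 1599.99 in the vehicle chronic libraries. The vehicle acute libraries were the lowest and the vehicle chronic libraries the highest of the 4 groups, with no overlap. The polyclonal effect was 1.32 and the vehicle effect 8.77 on the log2 scale, a difference of 7.44 (SE 0.22, limma adjusted p = 1.9e-12). The neighbouring granzyme genes behaved alike: Gzmd rose from 18.7, 18.95 and 14.2 to 2955, 2862 and 2885 RPKM in the vehicle experiment and from 104, 104 and 99.4 to 173, 149 and 144 RPKM in the polyclonal experiment, a difference of 6.74. The differences of Gzmf, Gzme and Gzmc were 6.18, 6.15 and 4.93. Granzymes C to G are similar in sequence, and reads may have been split between them by the authors' counting, so that their separate levels are uncertain.

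Of the 20 granzyme and granule genes, all of which were tested, 15 had a higher and 2 a lower difference, with a median of 2.89. Gzmn, called higher, passed the filter only through the vehicle chronic libraries, where it had to be high. The median effect was 0.12 in the polyclonal and 2.03 in the vehicle experiment, against -0.063 and -0.059 over all tested genes. Prf1, which encodes the pore-forming protein perforin, was at 282, 239 and 258 RPKM in the polyclonal acute libraries, 326, 281 and 323 in the polyclonal chronic, 80.03, 64.3 and 62.5 in the vehicle acute and 1381, 1379 and 1413 in the vehicle chronic libraries. The vehicle acute libraries were the lowest and the vehicle chronic libraries the highest of the 12. Serpinb9b, an intracellular serpin gene of the family that inhibits granzymes, was at 8.295, 6.79 and 9.31 RPKM in the polyclonal acute libraries, 45.3, 40.8 and 45.8 in the polyclonal chronic, 2.34, 2.399 and 1.84 in the vehicle acute and 814, 846 and 840.4 in the vehicle chronic libraries, a difference of 5.73 (SE 0.13, limma adjusted p = 1.7e-13). Gzma, the most abundant granzyme gene in the vehicle chronic libraries, fell in the polyclonal experiment (log2 change -1.15) and rose in the vehicle experiment (2.36), reaching 15817, 15817 and 15280.4 RPKM. Gzmb, the main granzyme of effector CD8+ cells, rose in both, by 0.52 and 1.39. The 2 members with a lower difference were Gzmm, which fell by more in the vehicle experiment (difference -1.29), and Srgn, the granule proteoglycan gene (-0.82). The differences of Gzmk (-0.57), the lysosomal protease gene Ctsc (0.087) and the lysosomal membrane gene Lamp1 (0.14) were not called. Summed CD4 and B cell marker levels were highest in the polyclonal chronic libraries, the latter in part through the filter, and Cd8a was lowest there, as given above. Their part in the granule gene differences was not tested.

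Several of these genes are neighbours on the chromosome. In the RefSeq gene order the 15 genes from Cma1 to Gzmb, which hold the mast cell protease genes and the granzymes, had 10 tested genes. All 10 had a higher difference, in a stretch chosen after its values were seen. Gzmn, which passed the filter only through the vehicle chronic libraries, was among them. Cma1, mast cell chymase, rose from 0.382, 0.0624 and 0.16 to 15.6, 14.6 and 14.2 RPKM in the vehicle experiment, and Ctsg, the granule protease cathepsin G, from 0.179, 0.273 and 0.407 to 26.9, 24.7 and 25.9 RPKM. In the polyclonal experiment Ctsg fell by 0.70 on the log2 scale and the Cma1 effect of -0.085 was not called.

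Kit, the stem cell factor receptor of mast cells and progenitors, was at 3.74, 4.19 and 3.804 RPKM in the polyclonal acute libraries, 0.161, 0.624 and 0.102 in the polyclonal chronic, 1.16, 1.21 and 0.987 in the vehicle acute and 13.6, 13.8 and 13.8 in the vehicle chronic libraries. It fell in the polyclonal and rose in the vehicle experiment, a difference of 4.74 (SE 0.19, limma adjusted p = 4.0e-11), and of 7.96 in limma-voom on the recovered reads. Of the 5 mast cell and basophil markers tested, 4 had a higher difference, and their summed level was 18.4 to 30.04 RPKM in polyclonal acute, 14.4 to 19.6 in polyclonal chronic, 4.51 to 5.99 in vehicle acute and 41.9 to 44.2 in vehicle chronic libraries. Other genes among the 12 highest differences were Filip1, which encodes a filamin A-interacting protein (log2 5.66), Fcrl6, an Fc receptor-like gene of cytotoxic lymphocytes (5.27), and Adamts14, a collagen-processing protease gene (4.46). The Filip1 effect was -0.041 in the polyclonal experiment, which was not called, and 5.62 in the vehicle experiment.

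The chemokine gene Xcl1 had the highest difference after Gzmg. Xcl1 encodes lymphotactin, which attracts cross-presenting dendritic cells. Its level was 6.997, 7.82 and 6.74 RPKM in the polyclonal acute libraries, 0.924, 2.06 and 1.45 in the polyclonal chronic, 12.7, 13.3 and 15.5 in the vehicle acute and 567, 560.3 and 572 in the vehicle chronic libraries. It fell in the polyclonal cells and rose in the vehicle cells, and the vehicle chronic libraries stood far above all others. The difference was 7.01 (SE 0.18, limma adjusted p = 4.5e-13).

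At the opposite end stood Ccl22 and Pou2af1. Ccl22, a chemokine that draws CCR4-bearing T cells and is made by dendritic cells, was at 0.259, 2.38 and 0.773 RPKM in the polyclonal acute libraries, 937, 891 and 986 in the polyclonal chronic, 0.23, 0.225 and 0.16 in the vehicle acute and 0.0346, 0.063 and 0.229 in the vehicle chronic libraries. Only the polyclonal chronic libraries expressed it above 3 RPKM, and the difference was -9.03 (SE 0.34, limma adjusted p = 2.1e-11). Pou2af1, the octamer-binding coactivator of B cells and follicular helper T cells, was at 0.395, 2.41 and 0.818 RPKM in the polyclonal acute libraries, 254, 233 and 256 in the polyclonal chronic, 1.34, 1.09 and 1.63 in the vehicle acute and 0.831, 0.9999 and 0.763 in the vehicle chronic libraries, a difference of -7.25 (SE 0.32, limma adjusted p = 1.2e-10). For both genes the vehicle effect was not called, at -0.12 and -0.33.

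The promoters of these 4 genes are shown because they carried the highest and lowest differences, each as the 250 bases before the RefSeq start on GRCm38.p6, 5′ to 3′ on the gene's strand. Capitals mark matches of the NFAT core TTTCC, the calcium-responsive element of TCR signalling, and an AP-1 motif, TGANTCA, was also searched, both on both strands. The regions are chr14:56159580-56159829 (minus strand) for Gzmg, chr1:164935523-164935772 (minus strand) for Xcl1, chr8:94745434-94745683 (plus strand) for Ccl22 and chr9:51213440-51213689 (plus strand) for Pou2af1.
Gzmg: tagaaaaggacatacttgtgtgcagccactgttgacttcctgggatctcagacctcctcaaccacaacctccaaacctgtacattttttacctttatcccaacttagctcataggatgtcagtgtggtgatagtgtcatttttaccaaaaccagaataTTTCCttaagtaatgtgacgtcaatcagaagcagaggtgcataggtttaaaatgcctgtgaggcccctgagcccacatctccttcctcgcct
Xcl1: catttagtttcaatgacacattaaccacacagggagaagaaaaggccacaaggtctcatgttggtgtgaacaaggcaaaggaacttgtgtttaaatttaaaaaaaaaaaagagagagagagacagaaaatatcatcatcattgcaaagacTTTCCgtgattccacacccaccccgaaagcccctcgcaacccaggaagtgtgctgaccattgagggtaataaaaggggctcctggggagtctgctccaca
Ccl22: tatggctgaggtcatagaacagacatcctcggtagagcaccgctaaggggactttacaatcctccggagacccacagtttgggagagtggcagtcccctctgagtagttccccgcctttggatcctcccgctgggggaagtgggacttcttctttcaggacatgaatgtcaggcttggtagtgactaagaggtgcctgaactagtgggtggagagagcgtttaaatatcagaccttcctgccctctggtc
Pou2af1: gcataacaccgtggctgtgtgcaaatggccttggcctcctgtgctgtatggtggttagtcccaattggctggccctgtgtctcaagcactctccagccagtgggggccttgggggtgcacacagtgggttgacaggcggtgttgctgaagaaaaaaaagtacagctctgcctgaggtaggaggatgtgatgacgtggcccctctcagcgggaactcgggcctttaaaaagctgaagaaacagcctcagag
Gzmg and Xcl1 held 1 TTTCC match each, Ccl22 and Pou2af1 held none, and no TGANTCA was found in these 4 windows. Of 32851 RefSeq promoters of the same length, 55.6% held TTTCC and 6.75% held TGANTCA. The matches are a description of the letters, not of binding.

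**Figure D3:**
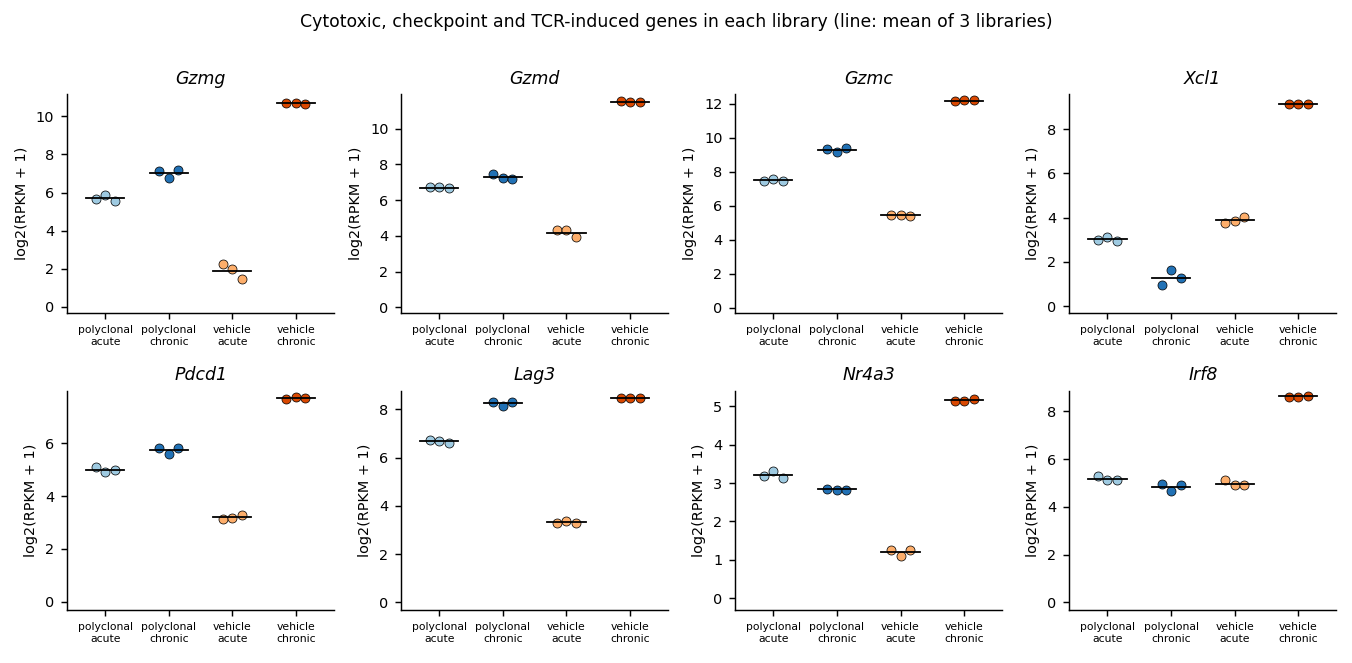
Levels of 8 genes in each of the 12 libraries, on the log2(RPKM + 1) scale, with 1 point per library and a line at the mean of 3 libraries. In all 8 panels the vehicle chronic libraries are the highest; for Gzmg, Gzmd, Gzmc, Pdcd1, Lag3 and Nr4a3 the vehicle acute libraries are also the lowest.

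NK receptor genes on T cells shared the direction of the granzymes. Of 21 tested, 3 of which passed the filter only through the vehicle chronic libraries, 16 had a higher and none a lower difference; the median was 1.72, with 10 members lower in the polyclonal and 17 higher in the vehicle experiment. Fcer1g, a signalling adaptor of Fc and NK receptors, was at 41.4, 46.04 and 42.9 RPKM in the polyclonal acute libraries, 32.2, 28.3 and 36.8 in the polyclonal chronic, 14.9, 19.5 and 16.7 in the vehicle acute and 286, 299 and 285 in the vehicle chronic libraries. The polyclonal chronic libraries were below the polyclonal acute, while the vehicle chronic libraries were above every other library, a difference of 4.44 (SE 0.13, limma adjusted p = 1.8e-12). Tyrobp, the adaptor DAP12, rose in both experiments, by 0.84 and 3.34.

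Klrd1, the CD94 chain of inhibitory and activating NKG2 receptors, was at 209, 227 and 252 RPKM in the polyclonal acute libraries, 29.9, 31.3 and 33.6 in the polyclonal chronic, 364, 365 and 398 in the vehicle acute and 578, 621 and 572 in the vehicle chronic libraries. It fell in the polyclonal and rose in the vehicle experiment, a difference of 3.47. The killer lectin receptor genes Klrg1 and Klrb1c had differences of 3.92 and 3.78. Klrg1 marks terminally differentiated effector cells, and Klrb1c encodes the NK1.1 antigen, which fell from 21.1, 21.8 and 21.1 to 0.705, 1.47 and 0.702 RPKM in the polyclonal experiment and did not pass the test in the vehicle experiment (log2 change 0.25). In RefSeq order, the 39 genes from Klrb1c to Klra1 had 23 tested genes, of which 14 were higher and 1 lower in the difference, again chosen after the values were seen. The Klra genes are near-identical copies whose reads may have been split between them. Of the 5 NK cell markers tested, 4 had a higher difference, and 3 of these 4, Klrb1c, Gzma and Klre1, are genes of the lists above. The summed NK marker level was 4533 to 4590 RPKM in polyclonal acute and 1789.9 to 2153 RPKM in polyclonal chronic libraries. In the vehicle experiment it was 3123 to 3288 RPKM in the acute and 15427 to 15963 RPKM in the chronic libraries. Most of it was Gzma, at 2039, 1774 and 2138 RPKM in polyclonal chronic and 15817, 15817 and 15280 RPKM in vehicle chronic libraries. Khdc1a, another of these markers, fell in both experiments.

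Most inhibitory receptor genes rose in each experiment, and the difference was higher for the majority of them. Of 18 tested, 11 rose in the polyclonal and 13 in the vehicle experiment, beside 30.6% and 25.6% of all tested genes. The difference was higher for 11 and lower for 5, against 26.0% and 29.2% of all tested genes, with a median of 0.48. The lower share was thus near that of all genes. Pdcd1, which encodes PD-1, was at 33.1, 28.9 and 30.9 RPKM in the polyclonal acute libraries, 55.3, 47.3 and 55.3 in the polyclonal chronic, 7.66, 8.003 and 8.88 in the vehicle acute and 207, 214 and 213 in the vehicle chronic libraries. Chronic libraries were above acute libraries in both experiments without overlap, and the vehicle acute libraries were the lowest. The effect was 0.74 in the polyclonal and 4.53 in the vehicle experiment, a difference of 3.79 (SE 0.10, limma adjusted p = 5.4e-13).

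Lag3 was at 106, 102 and 95.4 RPKM in the polyclonal acute libraries, 312, 284 and 316 in the polyclonal chronic, 8.72, 9.34 and 8.76 in the vehicle acute and 349.6, 358 and 352 in the vehicle chronic libraries. The chronic groups were close to each other, while the acute groups were far apart, so that the difference of 3.58 (SE 0.074, limma adjusted p = 7.3e-14) came mostly from the acute level. Havcr2 was at 73.04, 66.1 and 72.95 RPKM in the polyclonal acute libraries, 84.4, 89.05 and 85.7 in the polyclonal chronic, 25.6, 23.9 and 26.1 in the vehicle acute and 199, 203 and 204 in the vehicle chronic libraries, a difference of 2.67. Among the other members, Cd244, which encodes the receptor 2B4, and Cd38, an ectoenzyme gene, fell in the polyclonal and rose in the vehicle experiment, with differences of 3.94 and 4.45. Btla, an inhibitory receptor of lymphocytes, went the other way: it was at 1.54, 3.53 and 2.52 RPKM in the polyclonal acute libraries, 62.4, 77.3 and 62.2 in the polyclonal chronic, 5.23, 5.45 and 5.62 in the vehicle acute and 4.03, 4.28 and 4.84 in the vehicle chronic libraries, a difference of -4.56 (SE 0.22, limma adjusted p = 3.5e-10). Of the 5 members with a lower difference, Btla and Cd200 are also markers of follicular helper T cells.

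Of 19 costimulatory receptor genes tested, 7 had a higher and 9 a lower difference, where 26.0% and 29.2% of all tested genes did, with a median of 0.056. Slamf6, a receptor of the SLAM family found on stem-like CD8+ cells, was at 5.37, 8.11 and 6.301 RPKM in the polyclonal acute libraries, 22.8, 22.7 and 20.9 in the polyclonal chronic, 15.5, 17.4 and 19.05 in the vehicle acute and 0.513, 0.42 and 0.364 in the vehicle chronic libraries. It rose in the polyclonal and fell in the vehicle experiment, a difference of -5.29 (SE 0.16, limma adjusted p = 2.2e-12). Crtam, an adhesion receptor of activated CD8+ cells, did the reverse (-0.97 and 2.31, difference 3.28). Cd81, a tetraspanin gene, rose from 2.01, 5.05 and 2.305 to 66.8, 59.2 and 70.2 RPKM in the polyclonal experiment and from 4.42, 4.303 and 3.597 to 7.48, 6.61 and 7.39 RPKM in the vehicle experiment, a difference of -3.40.

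Most genes switched on by the TCR rose in each experiment. The NR4A genes, Egr2 and Egr3 had higher differences, while that of Egr1 was not called. Of 30 tested, 22 rose in the polyclonal and 25 in the vehicle experiment. The difference was higher for 16 and lower for 11, against 26.0% and 29.2% of all tested genes. Spry4, called higher, passed the filter only through the vehicle chronic libraries. Nr4a3, a nuclear receptor induced by TCR signalling, was at 8.11, 8.95 and 7.83 RPKM in the polyclonal acute libraries, 6.21, 6.11 and 6.12 in the polyclonal chronic, 1.39, 1.13 and 1.38 in the vehicle acute and 34.4, 34.2 and 35.5 in the vehicle chronic libraries. It fell slightly in the polyclonal cells and rose in the vehicle cells, where the acute libraries were the lowest of all 12, a difference of 4.34 (SE 0.10, limma adjusted p = 1.7e-13). The differences of Nr4a1 and Nr4a2 were 3.21 and 3.55.

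Egr3, an early growth response factor, was at 21.5, 17.4 and 20.5 RPKM in the polyclonal acute libraries against 1.16, 1.21 and 1.04 RPKM in the vehicle acute libraries, and at 24.8, 23.9 and 21.5 against 37.3, 39.01 and 38.7 RPKM in the chronic libraries. Its difference was 3.97 (SE 0.11, limma adjusted p = 8.2e-13). Irf8, an interferon regulatory factor of lymphoid and myeloid cells, was at 38.6, 33.6 and 33.9 RPKM in the polyclonal acute libraries, 29.6, 24.7 and 29.5 in the polyclonal chronic, 33.8, 28.8 and 29.003 in the vehicle acute and 389, 390.5 and 398 in the vehicle chronic libraries. The acute groups overlapped, and the vehicle chronic libraries were more than 10-fold above the polyclonal chronic libraries, a difference of 3.98 (SE 0.11, limma adjusted p = 8.4e-13). Feedback inhibitors were found on both sides: Spry2 had a difference of 3.82, while Socs1 and Dusp6 had -2.29 and -1.67.

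Among 24 effector and exhaustion transcription factors, 12 had a higher and 6 a lower difference, against 26.0% and 29.2% of all tested genes. The lower share was thus near that of all genes. Eomes, a T-box factor of effector and memory CD8+ cells, was at 120.5, 117 and 123 RPKM in the polyclonal acute libraries, 8.24, 7.41 and 7.64 in the polyclonal chronic, 94.2, 90.2 and 90.3 in the vehicle acute and 85.7, 84.4 and 84.998 in the vehicle chronic libraries. The 3 polyclonal chronic libraries were far below the other 9, and the vehicle effect was -0.11 (limma adjusted p = 0.053), a difference of 3.69 (SE 0.063, limma adjusted p = 1.7e-14). Batf3, a factor of dendritic cells and of some T cells, was at 1.096, 2.101 and 0.819 RPKM in the polyclonal acute libraries, 53.95, 54.6 and 52.2 in the polyclonal chronic, 12.01, 14.5 and 14.3 in the vehicle acute and 7.48, 7.77 and 9.08 in the vehicle chronic libraries. It rose in the polyclonal and fell in the vehicle experiment, a difference of -5.26 (SE 0.21, limma adjusted p = 4.0e-11). Ikzf2, which encodes Helios, was at 7.08, 7.19 and 8.19 RPKM in the polyclonal acute libraries, 3.94, 3.91 and 3.38 in the polyclonal chronic, 3.304, 3.99 and 4.77 in the vehicle acute and 35.99, 35.2 and 34.4 in the vehicle chronic libraries, a difference of 3.70.

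Tox, a factor associated with exhaustion, was low throughout, at 1.64 RPKM or less in all 12 libraries, and its difference of -0.38 was not called (limma adjusted p = 0.22). Without the polyclonal acute library numbered 2 it was -0.58 (limma adjusted p = 0.015). Tcf7, which encodes TCF-1, was at 50.7, 47.5 and 48.1 RPKM in the polyclonal acute libraries, 2.58, 2.88 and 2.32 in the polyclonal chronic, 158, 176 and 192 in the vehicle acute and 3.23, 3.37 and 3.903 in the vehicle chronic libraries. It fell in both experiments to similar chronic levels from unequal acute levels, a difference of -1.50 (SE 0.11, limma adjusted p = 5.0e-08). Of 27 tested memory and stem-like genes, 11 had a higher and 14 a lower difference, against 26.0% and 29.2% of all tested genes. The median was -0.21. Cxcr5, called lower, passed the filter only through the polyclonal chronic libraries. Id3, an inhibitor of E proteins in memory cells, fell from 38.8, 42.6 and 37.0 to 0.592, 1.44 and 0.56 RPKM in the vehicle experiment and was at 1.97, 2.16 and 2.33 and 2.14, 1.898 and 2.29 RPKM in the polyclonal acute and chronic libraries, a difference of -4.45. Il7r, the IL-7 receptor gene of memory cells, had a difference of 1.04 (SE 0.10, limma adjusted p = 4.1e-07).

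Most type 2 cytokine genes rose in each experiment, and the difference was lower for most of them. Of 18 tested, 15 rose in the polyclonal and 11 in the vehicle experiment. The difference was higher for 3 and lower for 12, with a median of -1.35. Il1rl1, called lower, passed the filter only through the vehicle acute libraries. Il4, the signature cytokine of type 2 helper cells, was at 0.833, 1.997 and 1.25 RPKM in the polyclonal acute libraries, 106, 118 and 132 in the polyclonal chronic, 0.775, 2.099 and 0.827 in the vehicle acute and 1.64, 1.69 and 1.76 in the vehicle chronic libraries. Only the polyclonal chronic libraries stood apart, and the difference was -5.37 (SE 0.28, limma adjusted p = 8.1e-10). Il5, the eosinophil growth factor, was at 1.48, 3.17 and 1.52 RPKM in the polyclonal acute libraries, 378, 363 and 409 in the polyclonal chronic, 2.63, 2.57 and 1.48 in the vehicle acute and 21.6, 23.9 and 25.8 in the vehicle chronic libraries. It rose in both experiments, by 7.02 and 2.96.

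Il13 rose in both as well. Its level was 3.04, 4.65 and 3.67 RPKM in the polyclonal acute libraries, 1159, 999.8 and 1222 in the polyclonal chronic, 5.07, 2.93 and 2.99 in the vehicle acute and 192, 196 and 217 in the vehicle chronic libraries, a difference of -2.42 (SE 0.21, limma adjusted p = 2.3e-07). Il10, an anti-inflammatory cytokine gene, rose by 6.47 and 2.67, and Il24, an IL-10 family member, was at 241, 241 and 258 RPKM in the polyclonal chronic against 17.1, 20.3 and 21.9 RPKM in the vehicle chronic libraries, a difference of -6.63 (SE 0.41, limma adjusted p = 6.0e-09). The regulators moved less: Gata3, the type 2 master factor, rose by 1.79 and 0.89, and Maf rose by 1.83 in the polyclonal and fell by 0.50 on the log2 scale in the vehicle experiment. Of 12 genes from Il4 to Il3 in RefSeq order, a stretch chosen after its values were seen, 10 were tested and 7 had a lower difference, Rad50 (-0.93) and Irf1 (-1.21) among them. Il3 itself rose in both experiments, and its difference was not called (-0.14, limma adjusted p = 0.64). The CD4 T cell marker sums given above were highest in the same polyclonal chronic libraries, mostly through Cd4 and Tnfsf8, while Trat1 fell. The part of CD4+ cells in the type 2 cytokine differences was not tested.

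Hormone and neuropeptide genes were among the 12 lowest differences. Pth, which encodes parathyroid hormone, was at 0.327, 2.09 and 0.976 RPKM in the polyclonal acute libraries, 716, 682 and 774 in the polyclonal chronic, 0, 0 and 0 in the vehicle acute and 4.02, 5.01 and 5.297 in the vehicle chronic libraries. It rose in both experiments. Because the vehicle acute libraries were listed at 0, the size of its difference (-5.97) depends on the pseudocount and was -3.90 with a pseudocount of 0.1. Gal, which encodes galanin, was at 186, 156 and 206 RPKM in the polyclonal chronic libraries and at 0.475 RPKM or less in the other 9. It passed the filter only through the polyclonal chronic libraries, where it had to be high. Igfbp4, an insulin-like growth factor binding protein gene, had another pattern: it fell from 93.1, 90.05 and 81.7 to 0.941, 0.773 and 0.546 RPKM in the vehicle experiment and stayed at 1.38 RPKM or less in the 6 polyclonal libraries, a difference of -5.87 (SE 0.15, limma adjusted p = 4.7e-13).

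Of 15 genes for interferon-gamma and TNF family ligands, 5 had a higher and 7 a lower difference, against 26.0% and 29.2% of all tested genes. Il21, called lower, passed the filter only through the polyclonal chronic libraries. Ifng was at 6.71, 6.95 and 8.48 RPKM in the polyclonal acute libraries, 119, 108 and 128 in the polyclonal chronic, 5.204, 4.67 and 4.13 in the vehicle acute and 432, 439 and 421 in the vehicle chronic libraries. Chronic libraries were above acute libraries in both experiments, and the vehicle chronic libraries were the highest, a difference of 2.42 (SE 0.12, limma adjusted p = 5.0e-10). The death ligand genes Fasl and Tnfsf10 had differences of 2.73 and 2.64. Fasl was at 11.5, 11.6 and 10.8 RPKM in the polyclonal chronic and 56.5, 59.02 and 58.9 RPKM in the vehicle chronic libraries.

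Il21, the follicular helper cytokine, was at 47.9, 52.1 and 52.4 RPKM in the polyclonal chronic libraries and below 1 RPKM in the other 9, a difference of -4.40 (SE 0.16, limma adjusted p = 2.1e-11). In limma-voom on the recovered reads that difference was -1.56 (limma adjusted p = 0.19) and was not called. Lta, the lymphotoxin gene, was at 2.77, 4.597 and 2.87 RPKM in the polyclonal acute libraries, 7.31, 6.07 and 7.49 in the polyclonal chronic, 55.02, 48.9 and 38.2 in the vehicle acute and 5.39, 6.02 and 5.15 in the vehicle chronic libraries. The vehicle acute libraries were the highest, and the difference was -3.75 (SE 0.21, limma adjusted p = 1.9e-09). Tnfsf8, the CD30 ligand gene, and Cd40lg, the helper cell signal to B cells, rose in the polyclonal and fell in the vehicle experiment, with differences of -3.94 and -3.46.

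Of 11 T cell chemokine genes tested, 9 rose in the polyclonal and 7 in the vehicle experiment, and 2 had a higher and 6 a lower difference. 4 of the 11 passed the filter only through the polyclonal chronic libraries, where they had to be high. Ccl4, an inflammatory chemokine gene, rose to 917, 872 and 956 and 848, 855 and 894 RPKM in the chronic groups from 23.5, 30.9 and 24.2 and 9.09, 11.3 and 11.3 RPKM in the acute groups, a difference of 1.15. Ccl17, the other CCR4 ligand gene beside Ccl22, had a difference of -3.40 and reached 21.8, 19.6 and 22.5 RPKM in the polyclonal chronic libraries. Of 28 cytokine receptor genes, 13 had a higher and 8 a lower difference, beside 26.0% and 29.2% of all tested genes. The lower share was thus near that of all genes. Csf2rb and Csf2rb2, both called lower, passed the filter only through the polyclonal chronic libraries, where they had to be high. Csf2rb, the common beta chain of the IL-3, IL-5 and GM-CSF receptors, was at 16.2, 16.7 and 16.6 RPKM in the polyclonal chronic libraries and at 1.77 RPKM or less in the other 9. Il18rap, an IL-18 receptor chain gene, fell by 4.14 and 1.42 on the log2 scale, and Ifngr2, the interferon-gamma receptor beta chain gene, rose by 1.16 and fell by 1.65, in the polyclonal and vehicle experiments respectively.

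Many B cell, plasma cell and MHC class II genes were highest in the polyclonal chronic libraries. Of 12 B cell markers that passed the filter on low values, 9 did so only through the polyclonal chronic libraries, as did 3 of 9 plasma cell markers and 3 of 10 MHC class II genes. Their direction is in part fixed by the filter, so that no count of called members is given for these lists. A B cell marker that fell in the polyclonal cells was Cd72 (log2 change -2.36). Of the plasma cell markers, Mzb1, a chaperone of antibody-secreting cells, was at 0.517, 1.44 and 1.29 RPKM in the polyclonal acute libraries, 448, 379.7 and 475 in the polyclonal chronic, 0.131, 0.0751 and 0.321 in the vehicle acute and 0.692, 1.01 and 1.24 in the vehicle chronic libraries, a difference of -6.98 (SE 0.23, limma adjusted p = 5.9e-12). Jchain, the joining chain of polymeric antibodies, was at 104, 101 and 107 RPKM in the polyclonal chronic libraries and at 2.31 RPKM or less in the other 9. Sdc1, the plasma cell surface marker syndecan-1, differed from these: it was at 19.3, 14.5 and 18.2 RPKM in the polyclonal chronic and 16.9, 16.98 and 18.5 RPKM in the vehicle chronic libraries, and its difference of 0.28 was not called (limma adjusted p = 0.27).

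Cd74, the MHC class II invariant chain, was at 1.93, 3.44 and 3.54 RPKM in the polyclonal acute libraries, 672, 567 and 699.9 in the polyclonal chronic, 1.595, 1.35 and 1.72 in the vehicle acute and 4.43, 3.95 and 4.91 in the vehicle chronic libraries. The polyclonal chronic libraries were more than 100-fold above each of the other 9, a difference of -6.28 (SE 0.20, limma adjusted p = 3.6e-12). H2-Aa and H2-Eb1, which encode class II chains, were at 237, 199 and 242 and 158, 129 and 159.96 RPKM in the polyclonal chronic libraries and at 4.02 RPKM or less in all others. Of the follicular helper T cell genes, Cxcr5, the follicle homing receptor gene, had a difference of -4.35 and Bcl6, the lineage factor gene, 1.27; Cxcr5 and Il21 passed the filter only through the polyclonal chronic libraries.

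Interferon-gamma induced GTPases fell in the vehicle experiment. All 16 tested members fell there, against 10 lower and 5 higher in the polyclonal experiment, and 14 had a lower and 1 a higher difference, with a median of -1.28. These GTPases attack the vacuoles of intracellular pathogens. Iigp1 was at 33.8, 38.7 and 37.2 RPKM in the polyclonal acute libraries, 40.6, 47.4 and 44.1 in the polyclonal chronic, 34.4, 28.6 and 31.9 in the vehicle acute and 1.02, 1.39 and 1.35 in the vehicle chronic libraries. The 3 vehicle chronic libraries lay far below the other 9, which were close together, a difference of -4.12 (SE 0.12, limma adjusted p = 1.6e-12). Igtp was at 162, 167 and 165 RPKM in the polyclonal acute libraries, 204, 201 and 218 in the polyclonal chronic, 215, 197 and 195 in the vehicle acute and 33.7, 33.003 and 33.8 in the vehicle chronic libraries, and Gbp2 was likewise lowest in the vehicle chronic libraries, with differences of -2.89 and -2.82. Gbp9 had a higher difference (0.42), that of Gbp8 was not called (0.25), and the Gbp genes are similar enough for reads to be shared between them.

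Ifng itself was highest in the same vehicle chronic libraries. Of 34 interferon-stimulated genes, 19 had a lower and 5 a higher difference, with a median of -0.38. Ifi27l2a, Oas3 and Bst2, an antiviral tether, had differences of -2.37, -1.83 and -1.68. Of 16 MHC class I and peptide loading genes, 11 had a lower and none a higher difference. B2m, the class I light chain, was at 3912, 3744 and 4211 RPKM in the polyclonal chronic and 1864, 1919 and 1865 RPKM in the vehicle chronic libraries, and Nlrc5, the class I transactivator, had a difference of -1.41.

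Of 36 cell cycle genes, 28 fell in the polyclonal and 35 in the vehicle experiment, and the difference was lower for 28 and higher for 1, with a median of -0.49. Ccnd2, which encodes cyclin D2, differed most: it was at 71.999, 61.8 and 68.6 RPKM in the polyclonal acute libraries, 337, 301 and 331 in the polyclonal chronic, 95.5, 88.9 and 91.7 in the vehicle acute and 97.2, 91.7 and 96.1 in the vehicle chronic libraries, a difference of -2.20 (SE 0.084, limma adjusted p = 3.1e-11). The replication gene Mcm6 was at 78.5, 73.98 and 76.4 and 80.8, 76.004 and 81.5 RPKM in the polyclonal acute and chronic libraries and fell from 124, 122 and 119 to 64.2, 62.97 and 64.8 RPKM in the vehicle experiment. Mki67, the proliferation marker, fell in both by like amounts (-1.22 and -1.11), and its difference of 0.11 was not called (limma adjusted p = 0.29). Without the polyclonal libraries numbered 2 it was 0.20 (limma adjusted p = 0.024).

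Endoplasmic reticulum chaperone genes rose in the polyclonal cells, 20 of 23, and 13 of 23 rose in the vehicle cells. The difference was lower for 19 and higher for 1, with a median of -0.62. Hsp90b1, which encodes GRP94, was at 311, 297 and 326 RPKM in the polyclonal acute libraries, 717, 657 and 740.2 in the polyclonal chronic, 402, 394 and 381 in the vehicle acute and 369, 377 and 374 in the vehicle chronic libraries, and the vehicle groups differed little, giving a difference of -1.25 (SE 0.077, limma adjusted p = 5.4e-09). Xbp1, the splicing-activated factor of the unfolded protein response and of plasma cells, rose by 1.82 and 0.40. Ern1, the sensor that splices Xbp1, was the 1 member with a higher difference, at 1.54. Of 13 cytosolic heat shock genes, 9 had a lower and 1 a higher difference. Hsp90aa1 rose by 0.89 in the polyclonal and fell by 0.88 on the log2 scale in the vehicle experiment. Of 27 genes induced by ATF4 or by shortage of amino acids, 26 rose in the polyclonal and 16 in the vehicle experiment. The difference was lower for 16 and higher for 3. Aldh1l2, which rose in the polyclonal experiment, passed the filter only through the polyclonal chronic libraries. Nupr1, a stress-induced chromatin protein gene, had -2.98. The plasma cell marker sum was 753 to 849 RPKM in the polyclonal chronic against 111 to 116 RPKM in the vehicle chronic libraries. Much of the former was Mzb1, at 448, 379.7 and 475 RPKM, and Irf4, also a TCR-induced gene, at 142, 151 and 141 RPKM. Sdc1 was at like levels in both chronic groups. The part of plasma cells in the differences of these stress genes was not tested. Of the 9 markers in that sum, 3 passed the filter only through the polyclonal chronic libraries.

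Most respiratory chain genes fell by small amounts in the vehicle experiment. Of 75 respiratory chain and ATP synthase genes, 53 fell and 3 rose there, while 12 fell and 20 rose in the polyclonal experiment. The difference was lower for 43 and higher for 2, with a median of -0.33. Ndufa4, a subunit gene of the chain, was at 117, 122 and 130.1 RPKM in the polyclonal acute libraries, 181, 173 and 188 in the polyclonal chronic, 319, 319.6 and 331 in the vehicle acute and 167, 165 and 157 in the vehicle chronic libraries. Acute levels were higher in the vehicle experiment and chronic levels were closer to each other, a difference of -1.54 (SE 0.07, limma adjusted p = 2.2e-10). Of 18 genes of the tricarboxylic acid cycle, 12 had a lower and none a higher difference. Idh2, mitochondrial isocitrate dehydrogenase, was at 8.35, 8.47 and 6.44 RPKM in the polyclonal acute libraries, 24.2, 21.4 and 25.5 in the polyclonal chronic, 22.6, 21.7 and 20.5 in the vehicle acute and 7.45, 7.37 and 7.12 in the vehicle chronic libraries. It rose in the polyclonal and fell in the vehicle experiment, a difference of -2.95 (SE 0.13, limma adjusted p = 9.2e-11). Pcx, pyruvate carboxylase, had -2.72.

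Of 20 glycolysis genes, 13 had a lower and 2 a higher difference. Hk2, which encodes hexokinase 2, rose from 12.5, 11.9 and 12.1 to 30.4, 28.6 and 28.8 RPKM in the polyclonal experiment, and its vehicle effect of 0.086 was not called. Aldoc, aldolase C, went the other way with a difference of 1.93. Of 32 antioxidant genes, 21 had a lower and 6 a higher difference. Me1, called lower, passed the filter only through the polyclonal chronic libraries. Prdx4, the peroxiredoxin of the endoplasmic reticulum, was at 15.7, 22.1 and 17.8 RPKM in the polyclonal acute libraries, 63.1, 58.1 and 60.2 in the polyclonal chronic, 28.4, 30.3 and 30.8 in the vehicle acute and 17.8, 15.95 and 15.03 in the vehicle chronic libraries, a difference of -2.51 (SE 0.13, limma adjusted p = 1.1e-09), and Prdx5, the peroxiredoxin of mitochondria and peroxisomes, had 1.39. Of 20 hypoxia targets, 8 had a called difference, 7 lower and 1 higher, a smaller share than the 55.2% of all tested genes, with Bnip3, a mitophagy receptor gene, at -1.70. Of 29 sterol and fatty acid synthesis genes, 11 were higher and 9 lower, against 26.0% and 29.2% of all tested genes, with a median difference of 0.0058. Fasn, fatty acid synthase, had -1.25 and Hmgcs1, an enzyme of the mevalonate pathway, 0.79.

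Targets of p53 rose in the polyclonal experiment, 13 of 17 tested, and 9 of 17 fell in the vehicle experiment. The difference was lower for 13 and higher for 3, with a median of -1.12. Fas, the death receptor gene, was at 5.07, 5.92 and 5.83 RPKM in the polyclonal acute libraries, 14.5, 17.7 and 16.7 in the polyclonal chronic, 11.5, 12.9 and 12.9 in the vehicle acute and 5.15, 5.41 and 6.52 in the vehicle chronic libraries. It rose in the polyclonal and fell in the vehicle experiment, a difference of -2.39 (SE 0.13, limma adjusted p = 1.5e-09). Pmaip1, the pro-apoptotic NOXA gene, rose from 12.5, 15.3 and 14.8 to 87.4, 89.6 and 89.97 RPKM in the polyclonal cells and stood at 14.6, 16.2 and 16.1 and 17.5, 18.1 and 16.7 RPKM in the vehicle groups, where its effect of 0.15 was not called. Cdkn1a, which encodes p21, had a difference of -1.92. Btg2 and Plk2, which are also induced by growth and TCR signals, were 2 of the 3 members with higher differences, at 1.84 and 2.01.

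**Figure D4:**
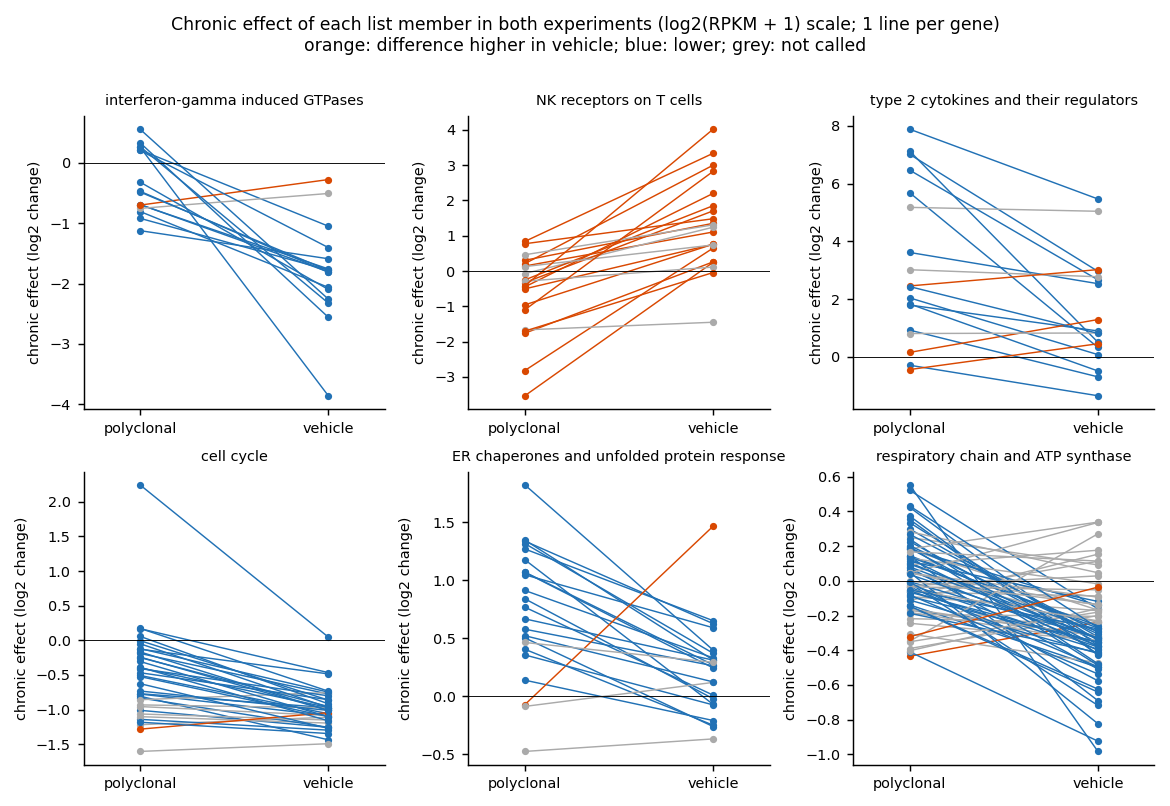
Chronic effect of every tested member of 6 gene lists in the polyclonal (left) and vehicle experiment (right), as log2 change on the log2(RPKM + 1) scale, with 1 line per gene and its colour showing whether the difference was called. The called difference was lower for 14 of 16 interferon-gamma induced GTPases and higher for 16 of 21 NK receptor genes.

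Most homing receptor genes fell in each experiment. Of 23 integrin and homing receptor genes, 15 fell in the polyclonal and 16 in the vehicle experiment. The difference was higher for 10 and lower for 11, against 26.0% and 29.2% of all tested genes. Cx3cr1, called higher, passed the filter only through the vehicle chronic libraries. Cxcr3, the receptor that guides effector cells to inflamed tissue, was at 52.98, 48.7 and 49.4 RPKM in the polyclonal acute libraries, 8.42, 8.03 and 7.96 in the polyclonal chronic, 103, 111 and 115 in the vehicle acute and 2.34, 1.45 and 1.44 in the vehicle chronic libraries. It fell in both, further in the vehicle experiment, a difference of -2.86 (SE 0.14, limma adjusted p = 3.7e-10). Itgb7, the beta 7 integrin gene of gut homing, had -2.86, and Cxcr4, the receptor for CXCL12, rose by 1.79 in the polyclonal and fell by 1.34 on the log2 scale in the vehicle experiment. Of 23 genes of mitochondrial biogenesis, dynamics and mitophagy, 4 had a higher and 5 a lower difference, with Optn at 1.29 and Sqstm1 at 1.10, where 26.0% and 29.2% of all tested genes were called. Of 8 metallothionein and zinc transport genes, 1 was higher and 3 were lower, with Mt3 at -1.76.

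**Figure D5:**
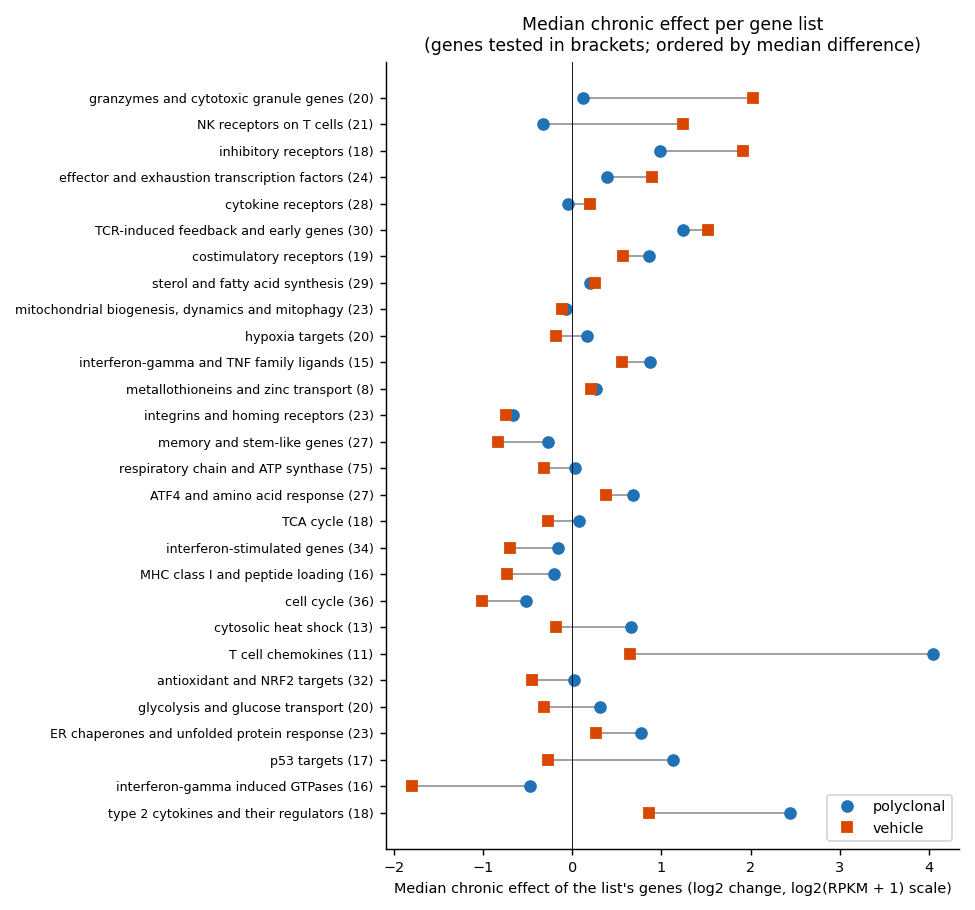
Median chronic effect of the tested members of each of 28 gene lists in the polyclonal (circles) and vehicle experiment (squares), as log2 change on the log2(RPKM + 1) scale, ordered by median difference. Granule genes and NK receptors lie at the top with the vehicle median to the right, and interferon-gamma induced GTPases and type 2 cytokines at the bottom with the vehicle median to the left.

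Some genes moved in opposite directions. Of the 781 that rose in the polyclonal and fell in the vehicle experiment, Tgm2, which encodes tissue transglutaminase, St6gal1, a sialyltransferase of B and T cells, Cd4 and Socs2, a feedback inhibitor of cytokine receptors, had the largest smaller effect. Tgm2 was at 0.264, 1.21 and 0.559 RPKM in the polyclonal acute libraries, 49.4, 42.5 and 47.5 in the polyclonal chronic, 9.73, 7.59 and 6.69 in the vehicle acute and 0.989, 1.12 and 0.886 in the vehicle chronic libraries, effects of 4.86 and -2.16. St6gal1 was at 6.59, 8.04 and 6.99 RPKM in the polyclonal acute libraries, 37.6, 32.4 and 36.6 in the polyclonal chronic, 10.5, 10.1 and 9.66 in the vehicle acute and 0.389, 0.224 and 0.331 in the vehicle chronic libraries. Neither gene's groups overlapped within an experiment, which the choice of genes with large effects in both experiments made likely.

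Socs2 was at 10.7, 11.4 and 12.4 RPKM in the polyclonal acute libraries, 58.6, 57.96 and 60.9 in the polyclonal chronic, 30.1, 29.8 and 28.5 in the vehicle acute and 6.88, 6.83 and 6.93 in the vehicle chronic libraries, a difference of -4.22 (SE 0.077, limma adjusted p = 2.4e-14). Of the 537 that fell in the polyclonal and rose in the vehicle experiment, the leading 4 were Xcl1 and Kit, given above, Cables1, a gene for a cyclin-dependent kinase adaptor, and Sh2d1b1, which encodes the SLAM receptor adaptor EAT-2 of NK cells. Cables1 was at 10.1, 7.55 and 9.52 RPKM in the polyclonal acute libraries, 0.389, 0.503 and 0.573 in the polyclonal chronic, 5.21, 5.76 and 5.82 in the vehicle acute and 21.02, 20.01 and 19.8 in the vehicle chronic libraries, a difference of 4.44 (SE 0.14, limma adjusted p = 2.6e-12). Sh2d1b1 was at 3.54, 3.78 and 3.26 RPKM in the polyclonal acute libraries, 0.13, 1.26 and 0.553 in the polyclonal chronic, 0.871, 0.902 and 0.932 in the vehicle acute and 8.36, 10.2 and 8.61 in the vehicle chronic libraries, a difference of 3.91 (SE 0.26, limma adjusted p = 1.6e-08), and of 6.21 in limma-voom on the recovered reads.

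Other genes moved in the same direction in both experiments. Of the 1629 genes raised in both experiments, 787 had no called difference, and of the 2426 lowered in both, 1278 had none. Over all tested genes 55.2% had a called difference and the rest had none, and the 2 counts are to be read beside that share. Ccl3, which encodes the chemokine MIP-1 alpha, was at 5.04, 8.29 and 4.43 RPKM in the polyclonal acute libraries, 1653, 1503 and 1789 in the polyclonal chronic, 2.11, 1.64 and 1.99 in the vehicle acute and 963, 942 and 988 in the vehicle chronic libraries. It rose by more than 100-fold in every chronic library over every acute library, and the difference of 0.44 was not called (limma adjusted p = 0.077). Slc17a6, a vesicular glutamate transporter gene, Inhba, the activin A subunit gene, Ccl9, a chemokine gene, Il1r2, the IL-1 decoy receptor gene, and Il3 followed. Slc17a6 reached 119, 114 and 122 RPKM in the polyclonal chronic and 74.9, 75.03 and 75.4 RPKM in the vehicle chronic libraries, and Inhba 98.4, 83.8 and 96.7 and 48.7, 49.2 and 56.6 RPKM. A difference that was not called does not show that the effects were equal, and each of these 6 genes was called under some other setting. With a pseudocount of 0.1 the differences of Ccl3, Slc17a6, Il1r2 and Il3 were 0.77, 1.97, 1.70 and 1.65 and were called, and the Il3 difference had changed sign. Without both polyclonal libraries numbered 2 the differences of Inhba, Ccl9 and Il3 were -0.76, -0.46 and -0.42 and were called. Without the polyclonal acute library numbered 2 alone those of Inhba and Ccl9 were -0.69 and -0.41. Without the polyclonal acute library numbered 3 the Ccl3 difference was 0.60, and without the one numbered 1 those of Slc17a6 and Il1r2 were 0.53 and 0.69, all called.

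Genes lowered in both included Gzmk, a granzyme of memory-like CD8+ cells, Klf2, the factor of quiescence and lymph node egress, Rcbtb2, Tbxa2r, the thromboxane receptor gene, Rtp4, an interferon-induced gene, and Khdc1a. Klf2 was at 13.8, 12.9 and 13.6 RPKM in the polyclonal acute libraries, 0.766, 1.07 and 0.509 in the polyclonal chronic, 30.2, 33.5 and 33.5 in the vehicle acute and 4.14, 3.61 and 4.08 in the vehicle chronic libraries. It fell in both experiments without overlap, with log2 changes of -3.03 and -2.76, and the difference of 0.28 was not called (limma adjusted p = 0.11). Rcbtb2 fell by 2.74 and 2.71 on the log2 scale, a difference of 0.031 (SE 0.088, limma adjusted p = 0.79). Without the polyclonal chronic library numbered 2 the differences of Klf2 and Tbxa2r were 0.39 and -0.35, and without the one numbered 1 that of Gzmk was -0.90, all called.

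A difference of effects can be set by the acute or by the chronic groups. Of the 718 genes at least 2-fold higher in the difference, the gap between experiments was larger in the chronic groups for 494 (68.8%) and in the acute groups for 224. Of the 827 genes at least 2-fold lower, it was larger in the chronic groups for 606 (73.3%) and in the acute groups for 221. Among the higher genes, 277 had gaps of over 0.5 (log2) in opposite directions, with the polyclonal acute above the vehicle acute and the vehicle chronic above the polyclonal chronic libraries, as for Gzmg and Pdcd1; among the lower genes 153 had opposite gaps. Lag3, Tcf7 and Ndufa4 were set mainly by unequal acute levels, and Ccl22, Cd74, Eomes and Iigp1 by chronic levels.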

How the data were processed

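The deposited table holds RPKM values that the authors computed from reads per gene in 21 libraries. Build mm9 and the tools bcl2fastq 2.17, HTSeq and edgeR appear in the submitters' processing notes, with no order. The aligner and the annotation were not given in the sources used here. Low RPKM values rose in steps of 1 read, and all genes (100.0%) came out as whole reads within 0.001 reads, which gave the depth of each library.

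Values were analysed as log2(RPKM + 1) with limma 3.58.1 in R 4.3.3, without weights, with 1 mean per group over 12 libraries (8 residual degrees of freedom), for the 11513 genes that reached an RPKM of 1 in 3 or more libraries. Adjusted p-values are Benjamini-Hochberg over all tested genes, and a gene was called at 0.05. A gene's difference was a single contrast of the 4 group means. No pair of libraries of a group agreed within sampling noise. The fit was tested on simulated data in which all libraries had the same spread beyond sampling noise. Real libraries of the polyclonal groups differed more among themselves than those of the vehicle groups, so that the simulation does not give the rate of false calls here.

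Members and gene lists were chosen with earlier results of these data known. Genes named were the 12 highest and 12 lowest called differences with a group mean RPKM of 5 or more, up to 3 called members per list with the largest difference, standard exhaustion and lineage genes, the 6 raised and 6 lowered in both experiments with no called difference, the 4 per direction with opposite effects, and cell type markers. Other genes (Il13, Il10, Prf1, Gzma, Klrd1, Cma1, Mcm6, Hsp90aa1, Xbp1, Gata3 and Maf among them) were chosen after their values were seen. Symbols that differ from later names were left as in the table. Promoters are from RefSeq on GRCm38.p6 and were matched by symbol only, since the table uses another build.

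The other settings tried were rescaling to a common median, a pseudocount of 0.1, a minimum RPKM of 5 or none, all 21 libraries in the fit, a replicate block, limma-voom on the recovered reads, a minimum fold of 2 and each library left out. Fits without both polyclonal libraries numbered 2, and counts without the genes of other cells, were added after seeing the data. Some items withheld for evaluation are not reported here.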

Additional observations from a re-analysis of the deposited data

Results flagged for a closer look

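The results here stand out because the chronic effects of the 2 experiments differed by the limma test of the difference itself. Over all tested genes, 2990 differences were higher and 3365 lower in the vehicle experiment. Of the genes called in both experiments with opposite signs, the 4 leading genes that rose in the polyclonal and fell in the vehicle experiment were Tgm2 with a difference of -7.02, St6gal1 with -5.23, Cd4 with -4.33 and Socs2 with -4.22 on the log2 scale. Those that fell in the polyclonal and rose in the vehicle experiment were Xcl1 with 7.01, Kit with 4.74, Cables1 with 4.44 and Sh2d1b1 with 3.91. In each of these 8 genes the 3 acute and the 3 chronic libraries did not overlap in either experiment. The genes were chosen for large called effects in both experiments, so that this was all but given by the choice. Groups of 3 libraries were too small to test for outlying samples.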

How the results depend on the processing

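The count of higher differences ran from 2660 to 3396 and that of lower differences from 3131 to 3656 when 1 library was left out in turn. Without both polyclonal libraries numbered 2 the counts were 3449 and 3845, after rescaling to a common median 3182 and 3170, and with limma-voom on the recovered reads 3185 and 3364. At least 91.0% of the called genes that were tested again were called in the same direction under these settings, and 0 in the opposite direction. A minimum of 2-fold, which asks for more by construction, left 718 higher and 827 lower differences, 744 and 594 vehicle effects, 928 and 724 polyclonal effects, 343 genes raised in both experiments, 237 lowered in both, 30 raised in the polyclonal and lowered in the vehicle experiment and 31 with the reverse. Il3 reversed with a pseudocount of 0.1, at 1.65 against -0.14 (limma adjusted p = 0.035 and 0.64). Il21 lost its call in limma-voom, as given in the report.

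Acute and chronic libraries with the same number had deviations that correlated at 0.323, 0.502 and 0.0969 in the polyclonal and at 0.0068, 0.0889 and 0.0798 in the vehicle experiment, so the numbers were not taken to pair them, and polyclonal acute library 1 correlated better with chronic library 3 (0.455). With a replicate block the difference was higher for 3297 and lower for 3592 genes, the vehicle effect for 3171 and 4455 and the polyclonal effect for 3712 and 4613. Among the genes named, Il1r2 and Gzmk gained a call under the replicate block.

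The number of called members of a gene list moved by over 1.5 times for at most 5 of 56 counts under any setting other than the minimum fold, where 38 moved. The shallowest library had 5347355 reads in genes, so levels under 1 RPKM rest on few reads.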
